A study of Mus musculus with 6 samples.

Results

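BiTS was compared with an isotype control across the whole transcriptome of stimulated OT-I cultures. BiTS is a bispecific T cell silencer built to bring the inhibitory receptor LAG-3 next to the T cell receptor. The OT-I genotype gives CD8 T cells a transgenic receptor for the ovalbumin peptide SIINFEKL. All libraries came from OT-I splenocytes labelled as naive primary CD8 T cells, given SIINFEKL and harvested at 48 h, so the isotype cultures received the peptide too. The BiTS group had replicates 3 and 6 and the isotype group replicates 1 and 4. BiTS(mut) replicates 2 and 5, whose alteration the labels do not describe, entered the scaling, the filter on low counts, the set term given below and the estimate of spread. The labels give neither dose, sex nor age, nor whether libraries came from separate animals or cultures, so p-values rest on the spread between these libraries. With 2 libraries per group that spread was largely shared over genes, so a p-value or SE is mostly not a gene's own spread. Libraries were paired by the number in their titles. BiTS replicate 3 and isotype replicate 1 made the first set, and BiTS replicate 6 and isotype replicate 4 the second.

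A gene was kept when its mean level reached 5 CPM, the counts of a gene scaled to a common library total, in BiTS or isotype and its change from isotype to BiTS had the same sign in both sets. Of 49671 genes in the tables, 10344 reached that level, and 5990 of these (57.9%) kept their sign, 2993 being higher and 2997 lower in BiTS. The sign was chosen from the values, so this share is a description. The genes nearest to the level limit had 5.00218 CPM inside and 4.99973 CPM outside it.

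T cell receptor engagement sets off kinase, calcium and NF-kB signals that drive cytokine, cytotoxic and adhesion genes, and LAG-3 restrains those signals. Activated CD8 T cells also act back on the antigen-presenting cells that show them the peptide: interferon gamma and CD40 ligand raise MHC class II, costimulatory molecules, IL-12 family cytokines and chemokines in dendritic cells. A bulk library of such a culture holds RNA of all its cells, and here fewer cells of a type and less RNA per cell cannot be told apart.

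Gene counts ran from 10813123 to 15239077 per library. Cd8a, the CD8 alpha chain, stood at 193 and 313 CPM in isotype replicates 1 and 4 and at 260 and 370 CPM in BiTS replicates 3 and 6. Lag3, bound by BiTS, had 542 and 565 CPM in isotype and 542 and 633 CPM in BiTS, a log2 change of 0.08 ± 0.08 (SE) with an adjusted p of 0.708. The 26 dendritic cell markers summed to 5595 and 3109 CPM in isotype and to 4551 and 2759 CPM in BiTS, so that list was lower in BiTS within each set and lower in the second set in each group. Itgax, the integrin of conventional dendritic cells, followed the sets with 146 and 45.7 CPM in isotype against 110 and 47.7 CPM in BiTS. Macrophage, B cell, natural killer, stromal and erythroid lists summed to between 14.6 and 107 CPM in these 4 libraries, and neutrophil and mast cell markers to at most 1.56 CPM, with S100a8, S100a9, Retnlg and Fcer1a at 0.

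Changes were small and only loosely shared between the sets. The median absolute log2 change was 0.12 in the first set and 0.16 in the second, and across the 10344 genes the changes of the sets correlated at r = 0.301 (Spearman 0.243; genes of the same 4 libraries, not independent replicates). The correlation was 0.249 over genes under 10 CPM and 0.427 over genes of 200 CPM or more. Of the 5990 genes that kept their sign, the smaller change of the pair was under 0.27 (log2) for 90%. Over 1.2-fold in each set, 325 of the 10344 genes (3.14%) were higher and 352 (3.4%) lower, while 53 (0.512%) were higher in the first set and lower in the second and 125 (1.21%) did the reverse. Over 1.5-fold, 19 genes (0.184%) were higher and 34 (0.329%) lower in each set, and 4 (0.0387%) were lower in the first set and higher in the second. Over 2-fold, there were 8 genes (0.0773%) lower in each set and 0 higher. These 8 were the cytokine gene Ifng, the pore-forming toxin gene Prf1, the adhesion gene Selp, the class II transactivator Ciita, the apolipoprotein L gene Apol7c, the matrix gene Lum, and the short RNA models Mir6236 and Gm24270.

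**Figure D1:**
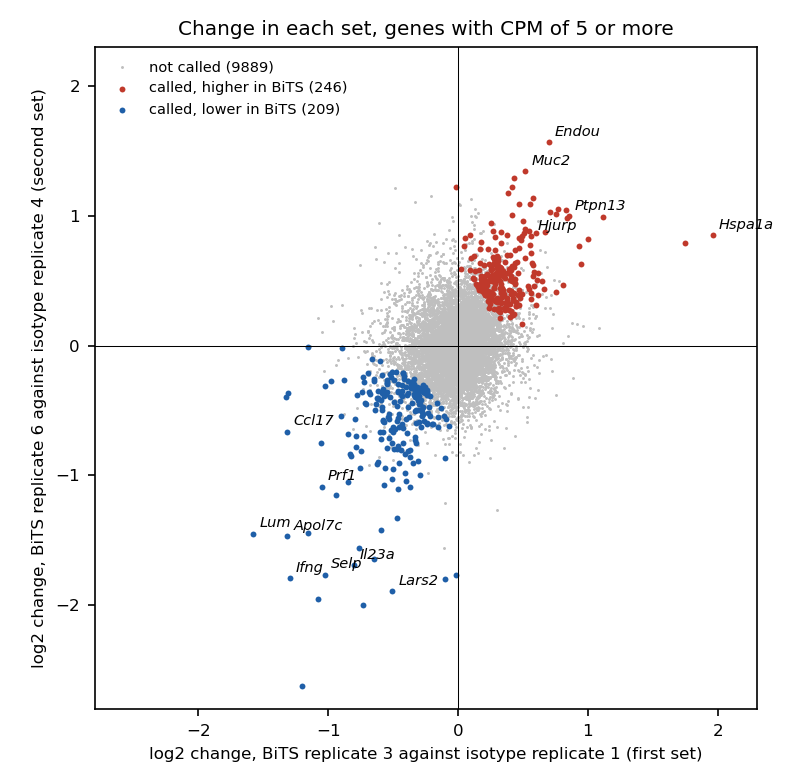
Log2 change from isotype to BiTS in the first set (x axis) against the second (y axis) for 10344 genes, 1 point per gene, computed as the log2 ratio of CPM plus 0.5. Red points are genes called higher and blue points genes called lower in BiTS, and most of them lie in the quadrants where the sets share a sign. Ifng, Prf1, Selp and Lum lie far down in both sets, while Lars2 is low mainly in the second.

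With the set as a term in the model, 476 of 13996 tested genes (3.4%) passed an adjusted p under 0.05 in edgeR's quasi-likelihood test and are called here, 253 higher (1.81%) and 223 lower (1.59%) in BiTS. The test had 2 residual degrees of freedom per gene and 45.93 prior ones, borrowed from all genes. An SE can thus be smaller than the disagreement of the sets. Lars2, for instance, changed by -0.51 in the first set and -1.89 in the second, with a fitted -1.22 ± 0.13. Of the 5990 genes that kept their sign, 454 were called, 245 higher and 209 lower, beside 455 of the 10344 genes of 5 CPM or more (4.4%). The rule that chose them used these changes, so nothing is read from that share. Without the set term no gene was called by edgeR, DESeq2 or limma-voom (176, 106 and 163 genes at an unadjusted p under 0.05), and this holds for every gene named below. Scaled by library totals alone, 166 genes were called higher and 246 lower. BiTS replicate 6 and isotype replicate 1 set much of the count, with 130 calls without the first and 937 without the second. Of the 476 calls, 63 (27 higher, 36 lower) stayed called whichever of the 6 libraries was left out, and all 476 kept their sign. Of the largest changes, Ifng had 83.7 and 198 CPM in isotype and 33.8 and 56.9 CPM in BiTS, -1.57 ± 0.10 (log2, SE), with an adjusted p of 1.5e-16. Prf1 had 77.2 and 134 CPM in isotype and 37.0 and 62.8 CPM in BiTS, a change of -1.08 ± 0.10. Every isotype value of both genes lay above every BiTS value.

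Genes called lower included an adhesion gene and genes known for their roles in antigen-presenting cells. Selp encodes P-selectin, which tethers leukocytes to vessel walls, and lies at chr1:164115264-164150026 (mm10, as are all coordinates). Its level was 54.0 CPM in isotype replicate 1, 43.0 CPM in isotype replicate 4, 26.2 CPM in BiTS replicate 3 and 12.3 CPM in BiTS replicate 6. The groups did not overlap, which held for 19.4% of genes of 5 CPM or more, and the log2 change was -1.35 ± 0.13 (adjusted p = 1.31e-10). Ciita, which switches on MHC class II genes, had 9.69 and 5.23 CPM in isotype and 4.07 and 1.61 CPM in BiTS, a change of -1.39 ± 0.25 (adjusted p = 0.00029). Il23a, the p19 subunit of IL-23, had 23.3 and 22.8 CPM in isotype and 13.2 and 6.72 CPM in BiTS (-1.22 ± 0.16). Il12b, the p40 subunit shared by IL-12 and IL-23, had 33.0 and 26.5 CPM in isotype and 21.7 and 9.56 CPM in BiTS (-0.97 ± 0.15). For these 3 genes too, both BiTS libraries were below both isotype libraries.

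The chemokine pair that attracts CCR4-bearing T cells fell together. Ccl17 had 33.5 and 27.0 CPM in isotype and 13.2 and 16.8 CPM in BiTS, a log2 change of -1.02 ± 0.14. Ccl22, the more abundant of the pair, had 390 and 261 CPM in isotype and 209 and 179 CPM in BiTS (-0.73 ± 0.09, adjusted p = 7.74e-08). Neither gene overlapped between groups. Cd40, the receptor through which T cells license dendritic cells, stood at 27.2 and 16.5 CPM in isotype and at 15.9 and 8.33 CPM in BiTS (-0.85 ± 0.15). The maturation marker Cd83 had 136 and 69.8 CPM in isotype against 93.9 and 47.0 CPM in BiTS (-0.55 ± 0.09), so its groups overlapped across sets but not within one. The checkpoint ligand gene Cd274 likewise had 140 and 61.8 CPM in isotype against 96.6 and 42.8 CPM in BiTS (-0.53 ± 0.09).

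Of the 23 dendritic cell markers tested, 10 were called lower and 0 higher, with a median log2 change of -0.33 against -0.00 over all genes tested. Besides Ciita, Il12b, Ccl17, Ccl22, Cd40 and Cd83, these were the costimulatory gene Cd86 (-0.61 ± 0.13), the chemokine receptor gene Xcr1 (-0.49 ± 0.14), the transcription factor gene Irf8 (-0.33 ± 0.08) and the class II gene H2-Aa (-0.31 ± 0.09). The count was 6 without BiTS replicate 6, 15 without isotype replicate 4 and 7 to 9 without any other library. Cd86 was lost without BiTS replicate 6 (-0.53). Xcr1, Irf8 and H2-Aa were lost without BiTS replicate 3 (-0.47, -0.36 and -0.30), BiTS replicate 6 (-0.50, -0.31 and -0.32), BiTS(mut) replicate 2 or BiTS(mut) replicate 5 (each time -0.49, -0.33 and -0.31), and Xcr1 also without isotype replicate 1 (-0.40). DESeq2 with the set term called 7 of the dendritic cell markers lower. Not every marker passed. Zbtb46, a transcription factor of conventional dendritic cells, had 43.0 and 18.1 CPM in isotype and 31.3 and 16.0 CPM in BiTS, and Clec9a, a receptor for dead cells on cross-presenting dendritic cells, had 47.7 and 14.03 CPM in isotype and 38.2 and 17.8 CPM in BiTS. Neither gene was called. The 10 T cell markers had 8 changes above 0, a median of 0.17 and 2 members called higher, Cd8a (0.34 ± 0.08) and Cd8b1 (0.39 ± 0.08), and summed to 1497 and 2026 CPM in isotype and to 1741 and 2056 CPM in BiTS. Both calls were lost without BiTS replicate 3 (0.22 and 0.35), and that of Cd8a without BiTS(mut) replicate 2 or BiTS(mut) replicate 5 (each time 0.34). The median of the T cell markers was 0.21 without isotype replicate 4 and 0.13 without isotype replicate 1. In the latter fit 7 changes were above 0 and 3 below. Scaled by library totals alone, 2 T cell markers were called higher and 1 lower. Activated T cells also express some genes of the dendritic cell list, such as Irf8 and Cd83. Whether the makeup of the cultures has a part in these decreases was not tested.

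Other large decreases were in genes of low level. Lum, a collagen-binding proteoglycan, had 3.64 and 7.06 CPM in isotype and 0.89 and 2.27 CPM in BiTS (-1.78 ± 0.32, adjusted p = 0.000237). Apol7c and Apol10b, apolipoprotein L genes of 1 cluster on chromosome 15, fell by 1.45 ± 0.24 and 0.99 ± 0.21 on the log2 scale. Apol7c had 14.9 and 5.59 CPM in isotype and 5.69 and 1.70 CPM in BiTS, and Apol10b 12.9 and 7.61 CPM in isotype and 6.95 and 3.41 CPM in BiTS. For Apol7c, BiTS replicate 3 was level with isotype replicate 4, so its groups overlapped, whereas Apol10b was lower in both BiTS libraries. Zfp366, a zinc finger gene of dendritic cells (-0.88 ± 0.21), and Stab1, a scavenger receptor (-0.83 ± 0.21), were lost without BiTS replicate 3 (-1.14 and -0.71) or BiTS replicate 6 (-0.78 and -0.92), and Zfp366 also without isotype replicate 1 (-0.71). Gca, a calcium-binding protein (-0.99 ± 0.19), and Apold1 (-0.76 ± 0.19) were lost without BiTS replicate 3 (-0.90 and -0.67). Arhgap22, a GTPase-activating protein (-0.80 ± 0.18), and Nudt17 (-0.78 ± 0.19) were lost without BiTS replicate 6 (-0.66 and -0.67) or isotype replicate 1 (-0.61 and -0.50).

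Genes called higher had a median absolute log2 change of 0.42, against 0.52 for genes called lower. Ptpn13, a large cytoplasmic tyrosine phosphatase at chr5:103425192-103598303, had 6.46 and 6.14 CPM in isotype and 12.1 and 12.8 CPM in BiTS, a log2 change of 0.97 ± 0.19 (adjusted p = 0.000973). Angptl6, a secreted angiopoietin-like factor, had 18.7 and 26.1 CPM in isotype and 33.9 and 52.1 CPM in BiTS (0.93 ± 0.12). Tnfrsf8, the CD30 receptor of activated lymphocytes, had 17.5 and 31.2 CPM in isotype and 31.5 and 64.8 CPM in BiTS (0.97 ± 0.12). The libraries of BiTS were above those of isotype for all 3 genes, though BiTS replicate 3 exceeded isotype replicate 4 by little for Tnfrsf8. Arhgef18, a guanine nucleotide exchange factor, rose from 25.5 and 23.4 CPM to 39.0 and 43.1 CPM (0.74 ± 0.12). Cables1, which binds cyclin-dependent kinases, rose from 32.1 and 24.4 CPM to 48.1 and 37.8 CPM (0.60 ± 0.11). Ctla2a, an inhibitor of cathepsin-like proteases, had 14.6 and 20.4 CPM in isotype and 28.5 and 31.9 CPM in BiTS (0.81 ± 0.14), again with no overlap.

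The metallothioneins, which bind zinc and copper, rose side by side. Mt2 had 32.1 and 31.9 CPM in isotype and 52.9 and 65.5 CPM in BiTS (0.88 ± 0.11, adjusted p = 2.26e-07). Its neighbour Mt1 had 133 and 131 CPM in isotype and 179 and 184 CPM in BiTS (0.46 ± 0.09), a call lost without BiTS replicate 6 (0.40). The isotype libraries of each gene were nearly level and below both BiTS libraries. The antisense model Gm45774 overlaps Mt2, and since strand is not given in the sources used here, reads of the overlap cannot be assigned. With Mgst2, a microsomal glutathione transferase (0.62 ± 0.13, but 0.52 and not called without BiTS replicate 6), these were the 3 called genes of 45 tested antioxidant and metallothionein genes, whose median was -0.06. The count was 1 without BiTS replicate 6.

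The inducible heat shock genes Hspa1a and Hspa1b had the largest fitted increases of the genes named. Hspa1a had 23.3 and 7.33 CPM in isotype and 92.1 and 13.6 CPM in BiTS, a log2 change of 1.66 ± 0.16. Hspa1b had 25.6 and 8.80 CPM in isotype and 87.2 and 15.6 CPM in BiTS (1.47 ± 0.16). The first set changed by 1.96 and 1.75 and the second by 0.85 and 0.79, and BiTS replicate 6 lay below isotype replicate 1. Without isotype replicate 1 the changes were 0.84 and 0.71, still called, while DESeq2 did not call them (adjusted p = 0.0977 and 0.176). The genes are near-identical copies, and the counting could have split reads between them.

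Further increases rested more on single libraries. Endou, an endoribonuclease (1.19 ± 0.26), Pkp2, a desmosomal plakophilin (0.92 ± 0.19), and Fbxo32, a muscle ubiquitin ligase subunit (0.80 ± 0.20), were lost without BiTS replicate 6 (0.76, 0.72 and 0.64). The low-level gene Maats1, with 3.48 and 4.86 CPM in isotype and 6.28 and 10.6 CPM in BiTS, was lost without BiTS replicate 6 (0.97) or isotype replicate 4 (0.83), and Fam183b (0.99 ± 0.25) without BiTS replicate 6 (0.83) or isotype replicate 1 (0.71). Maml3, a Notch coactivator (0.94 ± 0.24), was lost without BiTS replicate 3 (0.86), BiTS replicate 6 (1.01) or isotype replicate 1 (0.87). Muc2, a secreted mucin, kept its call throughout, with 40.7 and 17.5 CPM in isotype and 58.4 and 45.2 CPM in BiTS (0.88 ± 0.13), but changed by 1.32 without isotype replicate 1 and by 0.56 without isotype replicate 4, and DESeq2 did not call it (adjusted p = 0.115). Dpf1, a BAF complex subunit, had 32.5 and 11.0 CPM in isotype and 47.9 and 23.95 CPM in BiTS (0.78 ± 0.13). The groups were apart for Muc2 and overlapped across sets for Dpf1.

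**Figure D2:**
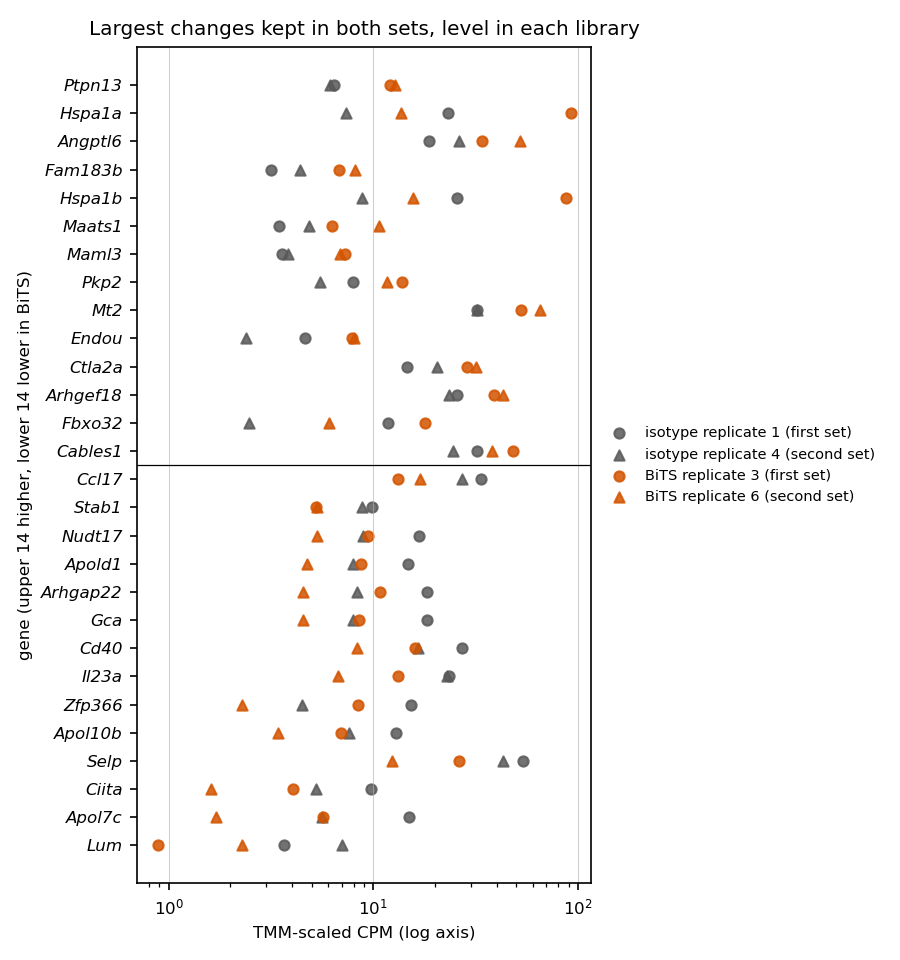
TMM-scaled CPM on a log axis for the 14 largest increases (upper rows) and 14 largest decreases (lower rows) outside the T cell lists, ordered by the change in the set where it was smaller. Grey marks are isotype libraries and orange marks BiTS libraries, circles the first set and triangles the second. Within each set the orange mark lies right of the grey one in the upper rows and left of it in the lower rows. The groups overlap across sets for Hspa1a, Hspa1b, Fbxo32, Apol7c, Zfp366, Gca, Arhgap22, Apold1 and Nudt17.

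Among called genes outside the T cell lists, the largest gain in CPM was in Hjurp, the chaperone that loads the centromeric histone CENP-A. It had 891 and 699 CPM in isotype and 1319 and 1255 CPM in BiTS, a log2 change of 0.71 ± 0.08 (adjusted p = 3.52e-08) with no overlap of the groups. The next 4 gains were the glycolytic enzyme Gpi1 (0.31 ± 0.08), the PI3K delta catalytic subunit Pik3cd (0.49 ± 0.08), the JNK scaffold Mapk8ip3 (0.44 ± 0.08) and the splicing factor Sf3b1 (0.31 ± 0.08). Without BiTS replicate 6 none of the 4 was called (0.27, 0.41, 0.39 and 0.24), nor were Gpi1 and Sf3b1 without BiTS replicate 3 (0.36 and 0.38), BiTS(mut) replicate 2 (0.31 and 0.31) or BiTS(mut) replicate 5 (0.32 and 0.31). Among decreases, the call of the cyclin gene Ccnd2 (-0.33 ± 0.08) was likewise lost without BiTS replicate 3 (-0.32), BiTS replicate 6 (-0.34), BiTS(mut) replicate 2 (-0.33) or BiTS(mut) replicate 5 (-0.33). The RNA-binding protein gene Hnrnpab fell by 0.38 ± 0.08 on the log2 scale, a call lost without BiTS replicate 6 (-0.26).

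Of 6 ribosomal RNA-like genes, 3 were called lower in BiTS, and these were highest in isotype replicate 4. The rRNA gene CT010467.1 had 1427 CPM in isotype replicate 1, 3360 CPM in isotype replicate 4, 928 CPM in BiTS replicate 3 and 1789 CPM in BiTS replicate 6 (-0.77 ± 0.08, adjusted p = 4.11e-09). Lars2, the mitochondrial leucyl-tRNA synthetase gene, had 215 and 650 CPM in isotype and 151 and 175 CPM in BiTS (-1.22 ± 0.13), and changed by -0.63 without isotype replicate 4 and by -0.74 without BiTS replicate 6. DESeq2 did not call it (adjusted p = 0.244). Mir6236, a short RNA model, had 9.77 and 28.6 CPM in isotype and 4.36 and 7.004 CPM in BiTS (-1.67 ± 0.20), and -1.10 without isotype replicate 4. Another pair of short RNA models, named after their values were seen, was also highest in isotype replicate 4. Gm23935 had 237 and 737 CPM in isotype against 143 and 185 CPM in BiTS, and Gm24270 had 16.3 and 51.6 CPM against 6.802 and 7.95 CPM. The lincRNA models Gm26917 (0.23) and Gm42418 (0.20) were not called, and AY036118 was listed at 0. Together the 6 genes held 0.257% and 0.503% of gene counts in isotype and 0.209% and 0.315% in BiTS. Leaving them out gave 475 calls.

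Called genes were then counted in 33 lists of function outside the T cell lists. Over all genes tested, 1.81% were called higher and 1.59% lower. Chromatin modifiers had 8 of 61 tested members called higher and 0 lower, with a median of 0.10. These were the histone demethylases Kdm3a (0.40 ± 0.08), Kdm4b (0.38 ± 0.09) and Kdm7a (0.53 ± 0.13), the deacetylases Hdac4 (0.39 ± 0.11) and Hdac5 (0.37 ± 0.09), the SET domain protein Kmt2e (0.35 ± 0.09), the remodelling factor Bptf (0.34 ± 0.08) and the DNA demethylase Tet2 (0.38 ± 0.10). DESeq2 with the set term called only 4 of the list, Kdm3a, Kdm4b, Hdac5 and Bptf. Kdm3a rose from 243 and 174 CPM in isotype to 306 and 242 CPM in BiTS, higher within each set but overlapping across them. The count was 0 without BiTS replicate 6, 20 without isotype replicate 1 and 6 without any other library. The 8 changes lay between 0.16 (Tet2) and 0.41 (Kdm7a) without BiTS replicate 6. Hdac4, Hdac5 and Bptf were lost without BiTS replicate 3 (0.40, 0.39 and 0.32), and Hdac4 and Bptf without BiTS(mut) replicate 2 or BiTS(mut) replicate 5 (each time 0.39 and 0.34). Hdac4 was also lost without isotype replicate 1 (0.33), and Tet2 and Kmt2e without isotype replicate 4 (0.10 and 0.21). Tet2 changed by 0.63 without BiTS replicate 3 and by 0.71 without isotype replicate 1.

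Hypoxia-inducible genes had 7 of 39 members called higher and 0 lower, with a median of 0.13 and 31 of 39 changes above 0. They were Ankrd37 (0.54 ± 0.12), the pyruvate dehydrogenase kinase Pdk1 (0.47 ± 0.09), the glycogen branching enzyme Gbe1 (0.45 ± 0.12), the aldolase Aldoc (0.43 ± 0.10), Kdm3a, Ndrg1 (0.30 ± 0.09) and the mTORC1 inhibitor Ddit4 (0.29 ± 0.08). DESeq2 with the set term called only 2 of the list, Pdk1 and Kdm3a. Pdk1 had 288 and 231 CPM in isotype and 355 and 358 CPM in BiTS, above isotype in each library. The glucose transporter gene Slc2a3, from the transporter list, rose alongside with 502 and 341 CPM in isotype and 617 and 490 CPM in BiTS (0.41 ± 0.09). The count was 0 without BiTS replicate 6, where changes ran from 0.10 (Ndrg1) to 0.35 (Gbe1) and Slc2a3 changed by 0.25, uncalled. It was 5 to 9 without another library, with 1 member called lower without isotype replicate 1. Ndrg1 and Ddit4 were lost without BiTS(mut) replicate 2 or BiTS(mut) replicate 5 (each time 0.30 and 0.29), Ddit4 without BiTS replicate 3 (0.34), Ddit4 and Gbe1 without isotype replicate 1 (0.19 and 0.26) and Ankrd37 without isotype replicate 4 (0.39). Ankrd37 and Ndrg1 changed by 0.82 and 0.50 without BiTS replicate 3.

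Further adhesion genes changed in both directions. Nectin1 (-0.69 ± 0.16), the tetraspanin gene Cd9 (-0.53 ± 0.13) and Icam1, the LFA-1 ligand (-0.37 ± 0.09), fell. The integrin genes Itgb7 (0.41 ± 0.08) and Itgb3 (0.53 ± 0.13) rose. Itgb7, part of the gut homing integrin, had 247 and 257 CPM in isotype and 328 and 344 CPM in BiTS, with no overlap. Selp and Cd9 stayed called without BiTS replicate 6, and Nectin1 (-0.59), Icam1 (-0.40), Itgb7 (0.39) and Itgb3 (0.57) did not. Without BiTS replicate 3, Cd9 (-0.46), Icam1 (-0.34) and Itgb3 (0.46) were lost, as were Cd9 (-0.46) and Itgb3 (0.40) without isotype replicate 1.

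Some protease inhibitor genes were among those called lower. Serpinb1a, an inhibitor of neutrophil-type proteases, had 153 and 88.6 CPM in isotype and 111 and 59.1 CPM in BiTS (-0.52 ± 0.09). Serpina3g, another serpin (-0.54 ± 0.09), was lost without BiTS replicate 3 (-0.43). From other lists, Procr, the endothelial protein C receptor gene, fell from 50.5 and 31.5 CPM in isotype to 33.6 and 20.9 CPM in BiTS (-0.59 ± 0.12). Serpinb1a and Procr were lower within each set and overlapped across sets. The cytokine gene Lif, with 126 and 225 CPM in isotype and 100 and 138 CPM in BiTS, changed by -0.52 ± 0.09 and by -0.34, not called, without BiTS replicate 6.

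Some large lists held no call. Of 62 cytosolic ribosomal protein genes 0 were called, while 60 changes were above 0 with a median of 0.08 (0.05 to 0.13 under the other scalings). The list summed to 71076 and 97021 CPM in isotype and to 76919 and 100775 CPM in BiTS, so the sets differed more than the treatments. Of 37 proteasome subunits 0 were called and 33 changes were below 0, with a median of -0.08. Leaving out isotype replicate 4 gave 3 ribosomal protein calls, and leaving out isotype replicate 1 gave 3 proteasome calls. Mitochondrial ribosome and import genes (46 tested), nucleotide salvage genes (44) and Notch and Wnt genes (33) had 0 calls too, but 6 of the first were called lower without isotype replicate 1 and 1 higher without isotype replicate 4. Nucleotide salvage had 1 call without isotype replicate 1 and 1 without isotype replicate 4, and Notch and Wnt 1 without isotype replicate 1.

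**Figure D3:**
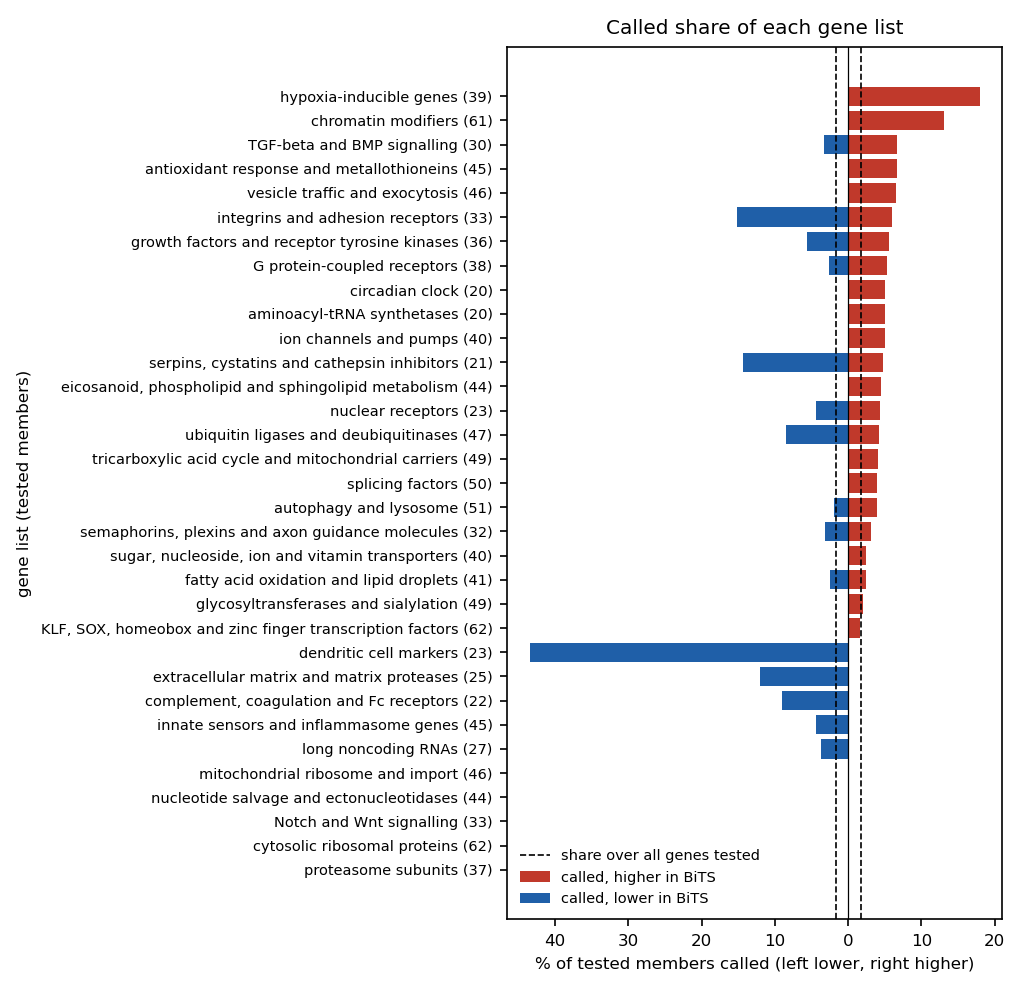
Share of tested members called higher (red, right) or lower (blue, left) in BiTS for each gene list with at least 20 tested members outside the T cell lists (1 list not shown), with the number tested in brackets. Dashed lines mark 1.81% higher and 1.59% lower, the shares over all genes tested. Dendritic cell markers reach furthest left, and hypoxia-inducible genes and chromatin modifiers furthest right.

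Some called genes lay next to each other. Among 455 called genes of 5 CPM or more, 40 pairs involving 72 genes were within 50 kb, of which 30 (75%) changed in the same direction (16 higher, 14 lower) and 10 in opposite directions. Over all 11781 pairs of genes of 5 CPM or more within that distance, 51.6% had fitted changes of the same sign. A called gene lay within 50 kb of 15.8% of the called genes and of 8.66% of the 9889 others, as a description with no test. Several pairs are members of a gene family. Cd274 and Pdcd1lg2 (-0.58 ± 0.15), which encode the ligands of PD-1, both fell, as did Slfn2 (-0.52 ± 0.10) and Slfn1 (-0.57 ± 0.17). The granzyme inhibitor Serpinb9 fell by 0.48 ± 0.08 on the log2 scale and its neighbour Serpinb9b by 0.74 ± 0.11. Calls lost without BiTS replicate 6 were Pdcd1lg2 (-0.52), Slfn1 (-0.34) and Serpinb9 (-0.40). Pdcd1lg2 was also lost without BiTS replicate 3 (-0.69) or isotype replicate 1 (-0.62), and Slfn1 without BiTS(mut) replicate 2 (-0.59), isotype replicate 1 (-0.64) or isotype replicate 4 (-0.52), with a change of -0.88 without BiTS replicate 3. Reads of paralogs such as these and Trim30a and Trim30d could be shared by the counting.

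Unrelated neighbours moved together at the Hjurp locus. Mroh2a ends 182 bases before Hjurp on chromosome 1, on the opposite strand, so their 3' ends face each other. Mroh2a, far lower in level than Hjurp, rose from 32.2 and 23.0 CPM in isotype to 46.2 and 37.0 CPM in BiTS (0.60 ± 0.12). Whether reads running past the end of Hjurp were counted for Mroh2a was not tested. The spans of Pear1 (0.68 ± 0.12, but 0.46 and not called without BiTS replicate 6) and the insulin receptor-related gene Insrr (0.72 ± 0.12) overlap on chromosome 3 on opposite strands. Any reads of shared exons cannot be assigned, and whether the 2 genes share exon bases was not tested. Other neighbours went opposite ways. Il23a fell while Pan2, a deadenylase subunit 5251 bases away, rose from 120 and 85.2 CPM to 158 and 139 CPM (0.55 ± 0.09). In the lymphotoxin cluster on chromosome 17, Ltb rose from 88.9 and 134 CPM to 141 and 181 CPM (0.55 ± 0.09), while Lta (-0.42 ± 0.08) and Tnf (-0.32 ± 0.10) fell. On chromosome 4, Marcksl1 fell by 0.61 ± 0.09 on the log2 scale, between Bsdc1 (0.47 ± 0.10) and the T cell kinase gene Lck (0.41 ± 0.08), which rose. Lta (-0.33), Tnf (-0.29) and Lck (0.40) lost their calls without BiTS replicate 6, and Bsdc1 without BiTS replicate 3 (0.43) or isotype replicate 1 (0.35). Tnf kept its call only without isotype replicate 4, with changes of -0.26 to -0.36 in the other fits.

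**Figure D4:**
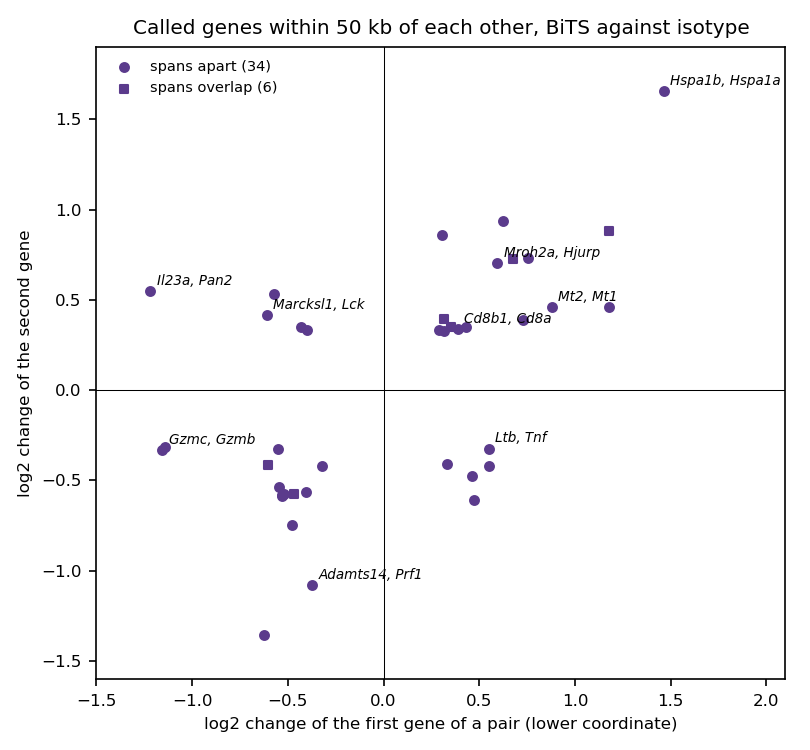
Fitted log2 change from isotype to BiTS of the first gene (x axis) and the second gene (y axis) for the 40 pairs of called genes within 50 kb, 1 mark per pair. Circles are 34 pairs with separate spans and squares 6 pairs with overlapping spans. The upper right and lower left quadrants hold the 30 pairs with shared direction, and the others hold the 10 opposite pairs, such as Il23a with Pan2.

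Promoter sequences were searched for motifs tied to activation. RefSeq promoters (GRCm38.p6, 250 bases before to 50 after the start) were matched by symbol for 9916 tested genes, 197 called higher and 164 called lower. Each motif was searched on both strands. The core of the interferon-stimulated response element, GAAA and GAAA with any 2 bases between them, was found in 9.76% of promoters of genes called lower, 3.55% of those called higher and 3.14% of all tested, against 3.49% of the 27025 promoters in the table. The AP-1 motif TGANTCA was in 11.6%, 6.599% and 4.81%, but in 7.93% of the whole table. The STAT motif TTCNNNGAA was in 11.0%, 5.58% and 6.84% (8.47% of the table), and the NF-kB motif, GGG and TTTCC with any 2 bases between them, in 4.27%, 1.52% and 1.62% (1.62%). A composite of NFAT and AP-1 letters, GGAAA and TGA with any 6 bases between them, was in 3.05%, 1.52% and 1.16% (1.60%). The CRE motif TGACGTCA went the other way with 1.22%, 2.54% and 3.35% (1.88%), as did the E-box CACGTG with 7.32%, 10.7% and 10.1% (7.24%). Some shares of called genes rest on few promoters. Those called lower and higher numbered 2 and 5 for CRE, 7 and 3 for NF-kB, and 5 and 3 for the composite. The median GC content was 56.0% for genes called lower, 60.3% for those called higher and 60.7% for all tested, and its part in these shares was not tested.

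The interferon motif is shown in 3 genes called lower, because 2 of the largest decreases hold it. Capitals mark matches of a motif on either strand, read 5' to 3' on the strand of the gene. The windows are chr15:77533266-77533565 (minus strand), chr15:77596076-77596375 (minus strand) and chr13:33004291-33004590 (plus strand). Each holds it on the reverse strand, as overlapping matches in Apol7c.
Apol7c: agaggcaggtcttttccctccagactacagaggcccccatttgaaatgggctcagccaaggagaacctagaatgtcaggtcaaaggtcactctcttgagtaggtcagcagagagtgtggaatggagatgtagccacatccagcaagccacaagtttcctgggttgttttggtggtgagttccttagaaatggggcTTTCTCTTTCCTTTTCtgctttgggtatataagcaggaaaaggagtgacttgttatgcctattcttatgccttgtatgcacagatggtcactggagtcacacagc
Apol10b: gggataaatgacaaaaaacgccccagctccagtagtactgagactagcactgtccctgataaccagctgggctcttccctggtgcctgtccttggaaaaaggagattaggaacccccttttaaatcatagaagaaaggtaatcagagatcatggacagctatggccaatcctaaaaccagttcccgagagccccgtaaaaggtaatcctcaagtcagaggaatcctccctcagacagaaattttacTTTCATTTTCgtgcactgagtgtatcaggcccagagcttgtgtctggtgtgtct
Serpinb9: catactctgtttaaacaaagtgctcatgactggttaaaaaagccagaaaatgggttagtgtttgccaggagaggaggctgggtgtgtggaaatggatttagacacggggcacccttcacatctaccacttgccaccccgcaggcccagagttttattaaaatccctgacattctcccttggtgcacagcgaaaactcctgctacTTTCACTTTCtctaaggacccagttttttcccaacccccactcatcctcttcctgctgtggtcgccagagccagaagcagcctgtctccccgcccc

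The AP-1 motif stood in promoters of genes that moved in opposite directions. It is shown for Selp (chr1:164115014-164115313, plus strand) and Procr (chr2:155750967-155751266, plus strand), which fell, and for Mt2 (chr8:94172368-94172667, plus strand) and Ctla2a (chr13:60936576-60936875, minus strand, the first of 2 listed starts), which rose. The earlier capitals in Ctla2a are a match of the STAT motif.
Selp: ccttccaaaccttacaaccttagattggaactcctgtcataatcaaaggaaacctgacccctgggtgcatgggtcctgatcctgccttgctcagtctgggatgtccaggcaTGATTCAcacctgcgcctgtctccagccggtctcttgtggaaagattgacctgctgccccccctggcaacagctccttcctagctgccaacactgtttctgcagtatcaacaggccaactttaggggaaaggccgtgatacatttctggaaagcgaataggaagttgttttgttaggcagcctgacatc
Procr: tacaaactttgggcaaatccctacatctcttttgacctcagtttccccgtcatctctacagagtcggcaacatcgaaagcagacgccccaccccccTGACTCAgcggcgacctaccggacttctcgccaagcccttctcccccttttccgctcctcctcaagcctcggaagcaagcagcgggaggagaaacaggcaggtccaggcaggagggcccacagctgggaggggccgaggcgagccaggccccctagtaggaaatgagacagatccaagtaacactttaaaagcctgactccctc
Mt2: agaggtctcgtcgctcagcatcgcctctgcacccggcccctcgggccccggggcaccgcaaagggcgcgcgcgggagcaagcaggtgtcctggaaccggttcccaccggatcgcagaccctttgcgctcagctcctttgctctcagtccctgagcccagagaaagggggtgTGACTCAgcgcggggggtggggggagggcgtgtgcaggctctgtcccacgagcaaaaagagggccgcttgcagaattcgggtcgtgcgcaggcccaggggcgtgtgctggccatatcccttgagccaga
Ctla2a: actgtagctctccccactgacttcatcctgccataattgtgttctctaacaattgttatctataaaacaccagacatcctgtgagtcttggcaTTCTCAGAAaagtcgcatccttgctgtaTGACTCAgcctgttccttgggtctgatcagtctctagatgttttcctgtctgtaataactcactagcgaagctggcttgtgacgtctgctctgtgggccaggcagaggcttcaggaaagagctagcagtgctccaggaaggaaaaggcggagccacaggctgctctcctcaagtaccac

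The STAT motif is shown for Ifng (chr10:118440796-118441095, plus strand), the gene with the lowest adjusted p, and for Ccl17 (chr8:94810203-94810502, plus strand). These matches are letters in a window, and no binding was measured.
Ifng: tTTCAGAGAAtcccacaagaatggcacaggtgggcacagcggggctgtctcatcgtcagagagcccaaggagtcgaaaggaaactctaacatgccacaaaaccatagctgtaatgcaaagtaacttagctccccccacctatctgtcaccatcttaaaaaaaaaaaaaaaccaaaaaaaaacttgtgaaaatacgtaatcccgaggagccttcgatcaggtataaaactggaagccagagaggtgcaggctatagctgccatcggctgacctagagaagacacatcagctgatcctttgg
Ccl17: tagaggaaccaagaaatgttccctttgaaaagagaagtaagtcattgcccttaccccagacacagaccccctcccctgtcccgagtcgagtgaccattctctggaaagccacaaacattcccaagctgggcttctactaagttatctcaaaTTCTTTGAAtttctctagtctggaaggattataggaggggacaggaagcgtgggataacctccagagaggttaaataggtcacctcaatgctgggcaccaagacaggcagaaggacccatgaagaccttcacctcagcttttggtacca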

How the data were processed

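RNA-seq of 6 libraries was analysed from raw counts per gene, deposited by the authors. The build (mm10) and DESeq2 are named in the submitters' processing notes, while neither aligner, counter, annotation release nor strand was given in the sources used here. Coordinates and exon lengths come from the deposited tables, symbols from GENCODE M21 (49412 of 49671 identifiers). The 92 ERCC spike-ins (3.36% to 7.54% of counts) were left out. A count of 0 allows up to 3 counts (0.197 to 0.277 CPM), for counting error only.

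Counts were TMM-scaled, filtered with filterByExpr and tested with edgeR 4.0.16 (R 4.3.3; quasi-likelihood, two-sided, all 6 libraries, set and group terms, Benjamini-Hochberg over 13996 genes). Changes within a set are log2((CPM + 0.5)/(CPM + 0.5)), with no test. Fits were run on simulated data with 1 spread for all genes and the same treatment change in both sets. The real sets disagreed more, so that run cannot show how well calls hold here. Sets follow title numbers, which no label calls a batch (library names number the BiTS libraries 1 and 2). Same-set libraries deviated together from their group means (correlations of 0.703, 0.78 and 0.763). Alternatives dropped the set term, used DESeq2 1.42.0 or limma-voom (limma 3.58.1), other scalings, filters, libraries or a 1.2-fold threshold. In fits without a BiTS or isotype library, the set term rested partly on BiTS(mut), so the changes of those fits depend on BiTS(mut) too. List counts without single libraries and fits by other tools without the set term were added after the data were seen.

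Members and lists were chosen with earlier results of these data known. Genes named were the 14 largest changes in each direction in the set with the smaller change, the 5 largest CPM differences in each direction, up to 3 called members per list with the smallest p, and Ifng, Prf1, Lag3, Cd3e and Cd8a, outside T cell lists, gene-model names and uncalled genes except the last 5. Others were chosen after their values were seen: the remaining called members of the lists described, the neighbour pairs, Tnfrsf8, Muc2, Dpf1, the rRNA-like genes and 2 dendritic cell lineage genes. Results of some genes are not reported here.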

Additional observations from a re-analysis of the deposited data

How the results depend on the processing

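The 476 called genes became 0 without the replicate block and 0 with scaling to the ERCC spike-ins, which moved the median of all genes to 0.05 (log2). With no block and no filter 11 were called. With the block the count was 160 by DESeq2, 295 from the 4 BiTS and isotype libraries alone and 64 when tested against a 1.2-fold change. Leaving out each library gave 130 (without BiTS replicate 6) to 937 (without isotype replicate 1) calls, with 291 and 306 without BiTS(mut) replicates 2 and 5. The cause was not tested. RLE size factors, limma-voom, other filters, library totals and leaving out the 6 rRNA-like genes gave 412 to 475. The number of genes keeping their sign stayed within 1.5 times 5990 in each alternative run where it was counted. That range is too wide to show how stable the number is, so nothing is read from it. The number has no value without a BiTS or isotype library, since 1 set then lacks an arm. None of the 146 called named genes changed sign in any alternative. The uncalled Clec9a, Zbtb46 and Itgax were not part of that check. Of 146 called named genes, 40 stayed called without each library in turn and 76 under DESeq2 with the block. With 2 libraries a group, 1 library can end a call, and genes of a few CPM rest on few counts.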

Other observations

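Of the genes of 5 CPM or more, 0 of 69 lincRNAs and 0 of 120 processed pseudogenes were called, against 4.41% of 9944 protein-coding genes. Genes called higher had a median exon length of 5360 bases and genes called lower 3200 bases, against 3694 bases over all genes tested. Their median levels were 71.3 and 41.1 CPM, against 22.3 CPM. Mitochondrial genes held 7.87% and 11.0% of gene counts in isotype replicates 1 and 4 and 9.14% and 11.0% in BiTS replicates 3 and 6.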
